A study of Homo sapiens with 12 samples.

Results

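TRPM1, CAPN3, TRIM63, ABCB5, ASB4, APOLD1 and EEPD1 are 7 genes of the 40173 gene IDs measured in 624Mel cells, an established human melanoma line. They were chosen by their siMITF differences: their RNA was much lower in cells transfected with an siRNA against MITF (siMITF), with or without IFNγ, and none of them makes melanin. Their siMITF values are given as a description with no test, whereas the effects of IFNγ on them were tested.

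RNA was sequenced from 4 conditions with 3 libraries each: control siRNA (siCTRL), siCTRL with IFNγ, siMITF, and siMITF with IFNγ. IFNγ was added at 5 ng/mL 24 h after transfection and left for 24 h, so that all cells were collected 48 h after transfection. The control cells had also been transfected, and every condition came from the one cell line, grown in serum-containing medium. Values are TPM, the share of a gene's transcripts in its library corrected for transcript length. Where a gene is compared between conditions, the difference is of log2(TPM + 1), which understates the change of genes near 0 TPM. A difference passed the test with an adjusted p under 0.05 in limma over 12773 gene IDs, those that averaged 2 TPM or more in at least 1 condition, and all 7 genes were among these.

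MITF is a basic helix-loop-helix leucine zipper factor that binds E-box sequences and holds melanocytes and melanoma cells in the pigmented, differentiated state. Its best known targets encode melanosome proteins, but it also drives genes of survival, membrane traffic and metabolism. IFNγ is a T cell cytokine that signals through JAK kinases and induces IRF1 and antigen presentation genes. TRPM1 is a cation channel first described in melanocytic cells and used by retinal ON-bipolar cells, and an intron of its gene holds the microRNA miR-211. CAPN3 is a calcium-dependent protease and TRIM63 (MuRF1) a ubiquitin ligase, both best known from skeletal muscle. ASB4 is a substrate adaptor of cullin ubiquitin ligases. ABCB5 is an ATP-dependent membrane transporter that marks subpopulations of melanoma cells. APOLD1 is an apolipoprotein L domain protein studied in endothelium, and EEPD1 an endonuclease-like protein linked to replication fork repair.

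Promoter sequences of 6 of the 7 genes were in the RefSeq promoter table (GRCh38.p14, 10 annotated starts), which gives 250 bases before and 50 bases after each start. The E-box forms CACGTG and CATGTG, searched on both strands so that CATGTG also appears as CACATG, were in 5 of the 10 windows and in those of 4 genes: CAPN3, EEPD1, TRIM63 and TRPM1. Of all 35116 promoter windows, 17.6% held such a match. With a T required before it (TCACGTG or TCATGTG, both strands), TRIM63 was the one gene left, and 6.52% of all windows then matched. The 250 bases before the start of 3 of these promoters are shown because they carry the match in front of the start, which is in capitals. The TRIM63 stretch, chr1:26067631-26067880 on the minus strand, has matches that begin 148 and 50 bases before the start. It lies inside the TRIM63 gene as annotated in GENCODE, which reaches to position 26068436. In the EEPD1 stretch, chr7:36153004-36153253 on the plus strand, the match begins 97 bases before the start. In the TRPM1 stretch, chr15:31101726-31101975 on the minus strand, it begins 56 bases before the start of a shorter transcript, and the window of the longer transcript has one 8 bases before its start at position 31161160.
TRIM63: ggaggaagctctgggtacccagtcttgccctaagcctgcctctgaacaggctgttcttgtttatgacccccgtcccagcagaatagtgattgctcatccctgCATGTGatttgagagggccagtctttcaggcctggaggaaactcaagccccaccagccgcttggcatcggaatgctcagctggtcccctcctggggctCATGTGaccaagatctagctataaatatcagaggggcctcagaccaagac
EEPD1: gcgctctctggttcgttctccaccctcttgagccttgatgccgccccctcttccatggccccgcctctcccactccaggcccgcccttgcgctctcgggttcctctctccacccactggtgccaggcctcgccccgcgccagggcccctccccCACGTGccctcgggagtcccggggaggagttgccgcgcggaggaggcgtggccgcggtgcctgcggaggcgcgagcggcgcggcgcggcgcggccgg
TRPM1: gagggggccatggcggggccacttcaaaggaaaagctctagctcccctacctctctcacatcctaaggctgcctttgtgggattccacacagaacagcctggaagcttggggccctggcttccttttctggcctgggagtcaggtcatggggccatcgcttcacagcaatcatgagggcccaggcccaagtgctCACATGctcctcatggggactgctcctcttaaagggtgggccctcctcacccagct
The CAPN3 match begins at the fourth base after an internal start at position 42402367 of chromosome 15, and no match was found in the windows of ASB4 and APOLD1. A match is a run of letters and does not show binding in these cells.

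The intron of TRPM1 between exons 7 and 8 of 28 holds miR-211, whose mature 5p strand lies at chr15:31065095-31065116 on the minus strand. It is shown, with its seed (bases 2 to 8) in capitals, because it would share the transcript of TRPM1, and its own level was not measured here.
hsa-miR-211-5p: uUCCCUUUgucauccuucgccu

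The TPM of a library summed to between 975336 and 982632, mitochondrial genes took between 7.42% and 16.9%, with the lowest share in replicate 2 of each condition, and across genes any pair of libraries correlated at 0.978 to 0.998. All 6 melanocytic markers were present. The siRNA target MITF (ENSG00000187098) averaged 211 ± 21.7 TPM in siCTRL (mean ± SD, n = 3, as throughout) and 42.5 ± 6.87 TPM in siMITF cells, so that 20.1% remained. With IFNγ it averaged 216 ± 50.1 TPM in siCTRL and 48.0 ± 9.23 TPM in siMITF cells, 22.2% remaining. IFNγ was active in both backgrounds: IRF1, TAP1 and GBP1 rose, TAP1 from 5.12 to 182 TPM in siCTRL and from 5.05 to 294 TPM in siMITF cells.

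The range of TPM among the 7 genes in siCTRL cells was wide. CAPN3 was highest at 488 ± 15.3 TPM, followed by APOLD1 at 96.8 ± 9.58 and ASB4 at 73.8 ± 3.45, then TRIM63 at 37.6 ± 1.55 and TRPM1 at 35.5 ± 3.34, EEPD1 at 11.4 ± 1.08 and ABCB5 at 9.65 ± 0.640. TRIM63 and TRPM1 lay within their spread of each other, and the EEPD1 and ABCB5 libraries were separated by only a narrow gap. In siMITF cells the order was CAPN3, ASB4, APOLD1, TRIM63, EEPD1, TRPM1 and ABCB5, and the libraries of ASB4 and APOLD1, of TRIM63 and EEPD1, and of TRPM1 and ABCB5 overlapped.

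TRPM1 (ENSG00000134160, chromosome 15 from 31001065 to 31161160) and TRIM63 (ENSG00000158022, chromosome 1 from 26051301 to 26068436) had the lowest shares remaining after siMITF. TRPM1 was at 38.5, 36.0 and 31.9 TPM in siCTRL libraries 1 to 3 and at 0.474, 0.641 and 0.517 TPM in siMITF cells. With IFNγ it was at 61.3, 53.2 and 56.8 TPM in siCTRL and 0.661, 0.848 and 1.31 TPM in siMITF cells. Every siMITF library thus lay far below every siCTRL library, at 1.53% of the siCTRL mean without IFNγ and 1.65% with it. TRIM63 was at 36.5, 39.4 and 37.0 TPM in siCTRL libraries and at 0.955, 1.17 and 0.953 TPM in siMITF cells. With IFNγ its libraries stood at 67.5, 66.9 and 66.0 TPM in siCTRL and 0.826, 1.05 and 1.66 TPM in siMITF cells. The remaining share of TRIM63 was 2.73% without and 1.76% with IFNγ. On the log2 scale the siMITF differences were -4.56 and -4.91 for TRPM1 and -4.25 and -4.98 for TRIM63, and among all tested genes these ranked between the second and the fourth largest falls in both comparisons.

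CAPN3 (ENSG00000092529, chromosome 15 from 42359498 to 42412949), the protease, was the most abundant of the 7 genes in all conditions. It was at 505.6, 478.3 and 480.1 TPM in siCTRL libraries and at 40.1, 47.5 and 42.3 TPM in siMITF cells. With IFNγ the values were 320.5, 328.8 and 328.7 TPM in siCTRL and 55.8, 57.4 and 62.5 TPM in siMITF cells. IFNγ libraries were lower than untreated ones in siCTRL cells and higher in siMITF cells, with no overlap in either. The share remaining after siMITF was 8.88% without IFNγ and 18.0% with it.

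EEPD1 (ENSG00000122547, chromosome 7 from 36153254 to 36301538), which carries an endonuclease and phosphatase family domain, had the same arrangement at lower levels. It was at 10.6, 12.6 and 10.9 TPM in siCTRL and at 0.781, 0.963 and 1.22 TPM in siMITF cells. With IFNγ it was at 7.41, 6.80 and 7.28 TPM in siCTRL and 1.50, 1.93 and 1.63 TPM in siMITF cells. The share remaining was 8.69% and, with IFNγ, 23.6%.

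ABCB5 (ENSG00000004846, chromosome 7 from 20615667 to 20777038), the transporter, was the least abundant of the 7 in siCTRL cells. Its siCTRL libraries were at 9.55, 10.3 and 9.06 TPM and its siMITF libraries at 0.270, 0.394 and 0.553 TPM. With IFNγ these were 5.06, 7.35 and 6.30 TPM and 0.547, 0.576 and 0.642 TPM. The siMITF groups with and without IFNγ overlapped, and 4.21% remained without and 9.43% with IFNγ.

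ASB4 (ENSG00000005981, chromosome 7 from 95478444 to 95540233), the ubiquitin ligase adaptor, and APOLD1 (ENSG00000178878, chromosome 12 from 12725917 to 12829975) kept the largest shares. ASB4 was at 70.8, 77.6 and 73.1 TPM in siCTRL and 23.9, 26.2 and 22.0 TPM in siMITF cells, and with IFNγ at 47.5, 59.5 and 54.3 TPM and 23.5, 24.4 and 22.0 TPM. APOLD1 was at 90.4, 107.8 and 92.2 TPM in siCTRL and 21.6, 24.4 and 21.5 TPM in siMITF cells, and with IFNγ at 59.6, 71.6 and 73.4 TPM and 19.5, 23.8 and 21.7 TPM. In siMITF cells the IFNγ libraries of both genes overlapped the untreated ones. ASB4 kept 32.5% without and 43.3% with IFNγ, and APOLD1 kept 23.2% and 31.8%. With a log2 difference of -1.58 without and -1.17 with IFNγ, ASB4 was the least strongly lowered of the 7 and ranked 137th and 249th among the falls of all tested genes, whereas APOLD1 (-2.05 and -1.61) ranked 59th and 105th. The other 3, CAPN3 (-3.47 and -2.46), ABCB5 (-2.92 and -2.18) and EEPD1 (-2.64 and -1.60), ranked between the 9th and the 28th without IFNγ and between the 31st and the 108th with it. All 7 were past the limits used for a changed gene, as the choice favours, beside 2.88% of the tested genes that were lower by these limits without IFNγ and 2.57% with it.

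The first tested question was how these genes responded to IFNγ in siCTRL cells, with MITF at its control level. In siCTRL cells TRPM1 and TRIM63 rose with IFNγ, to 1.61 and 1.77 times their untreated means, and the other 5 fell to between 62.9% and 72.9% of theirs. Thus 2 genes passed the test with a rise, beside 6.8% of all tested genes, and 5 with a fall, beside 6.14%. None moved by 1 or more on the log2 scale, as 2.52% of the tested genes did with an adjusted p under 0.05 and at least 2 TPM. The median difference of the 7 was -0.50, against -0.07 over all tested genes. The siCTRL libraries used here also served in the comparison that chose the genes.

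TRIM63 rose by 0.81 on the log2 scale (standard error 0.12, limma adjusted p = 6.7e-04) and TRPM1 by 0.67 (standard error 0.13, limma adjusted p = 0.00322). CAPN3 fell by 0.58 (standard error 0.07, limma adjusted p = 1.3e-04) and EEPD1 by 0.60 (standard error 0.11, limma adjusted p = 0.00346). ABCB5 fell by 0.57 (limma adjusted p = 0.0106), APOLD1 by 0.50 (limma adjusted p = 0.00814) and ASB4 by 0.45 (limma adjusted p = 0.00679). For all 7 genes the 3 IFNγ libraries lay on one side of the 3 untreated ones, which was so for 29.7% of the tested genes. MITF itself did not pass, with a difference of 0.01 and a 95% interval from -0.39 to 0.41 (limma adjusted p = 0.984). Its 3 IFNγ libraries were at 158, 246 and 243 TPM, so its own response was measured less closely than those of the 7 genes. The ABCB5 call was lost with a pseudocount of 0.1 (limma adjusted p = 0.0699) and without siCTRL replicate 2 (limma adjusted p = 0.0501).

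**Figure D1:**
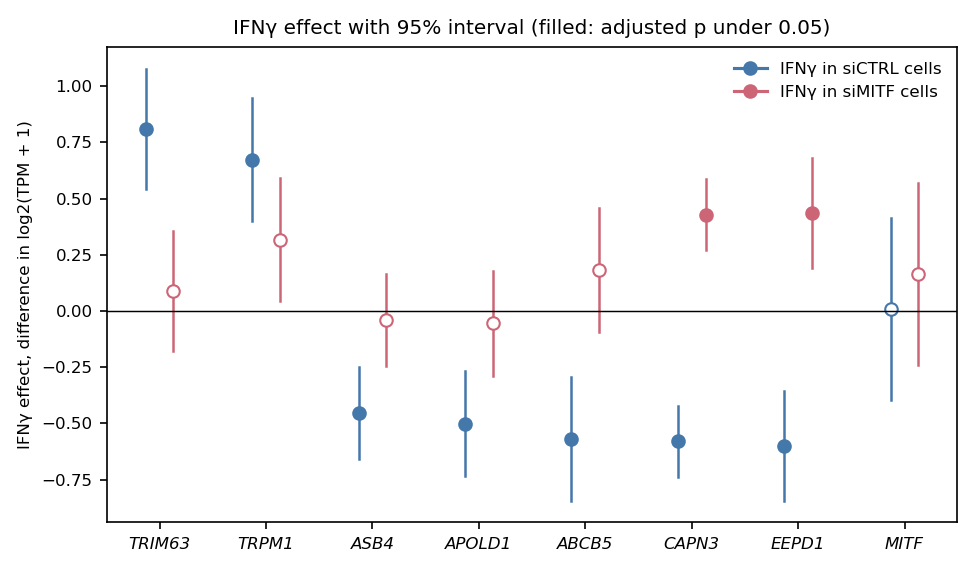
Difference in log2(TPM + 1) between IFNγ and untreated libraries for each gene and MITF, in siCTRL cells (blue) and siMITF cells (red), with 95% intervals from limma; filled points passed an adjusted p of 0.05. In siCTRL cells TRIM63 (0.81) and TRPM1 (0.67) lie above 0 and the other 5 chosen genes between -0.45 and -0.60, while in siMITF cells only CAPN3 (0.43) and EEPD1 (0.44) are filled.

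In siMITF cells 2 of the 7 genes passed the test for IFNγ, both with a rise. CAPN3 rose by 0.43 on the log2 scale (standard error 0.07, limma adjusted p = 0.00121) and EEPD1 by 0.44 (standard error 0.11, limma adjusted p = 0.0164), to 1.35 and 1.71 times their means without IFNγ. The EEPD1 means, 0.989 TPM without and 1.69 TPM with IFNγ, were under the 2 TPM filter, which EEPD1 passed only through siCTRL cells. The same held for TRPM1, TRIM63 and ABCB5, so these tests rest on low values. Thus 2 genes passed with a rise, beside 7.99% of all tested genes, and 0 with a fall, beside 12.2%, and at an unadjusted p under 0.05 in limma 3 of the 7 rose and 0 fell, beside 33.8% of the tested genes in either direction. The untreated siMITF libraries also served in the comparison that chose the genes for low values there. The other 5 did not pass: TRPM1 had 0.32 (95% interval 0.04 to 0.59), ABCB5 0.18 (-0.09 to 0.46), TRIM63 0.09 (-0.18 to 0.35), ASB4 -0.04 (-0.25 to 0.17) and APOLD1 -0.05 (-0.29 to 0.18). Their limma adjusted p-values ran from 0.0961 for TRPM1 to 0.800 for ASB4, and under quantile normalization TRPM1, ABCB5, TRIM63 and ASB4 changed sign. The libraries were without overlap for TRPM1, CAPN3 and EEPD1, 3 of 7, as for 40.5% of the tested genes. The median of the 7 was 0.18, against -0.10 over all tested genes.

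The call of EEPD1 in siMITF cells was not firm. It was lost in 5 of 22 alternatives: quantile normalization (0.22, limma adjusted p = 0.193), a fit of the 2 siMITF conditions alone (limma adjusted p = 0.0615), and the fits without siMITF replicate 1 (0.36, limma adjusted p = 0.0777), siMITF replicate 2 (0.43, limma adjusted p = 0.0575) or siMITF + IFNγ replicate 2 (0.37, limma adjusted p = 0.0583). TRPM1 passed with a pseudocount of 0.1 (0.65, limma adjusted p = 0.0329) and without siMITF + IFNγ replicate 1 (0.42, limma adjusted p = 0.0360). The 3 libraries with IFNγ spread more for TRPM1 and TRIM63, whose values near 1 TPM are close to the pseudocount.

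**Figure D2:**
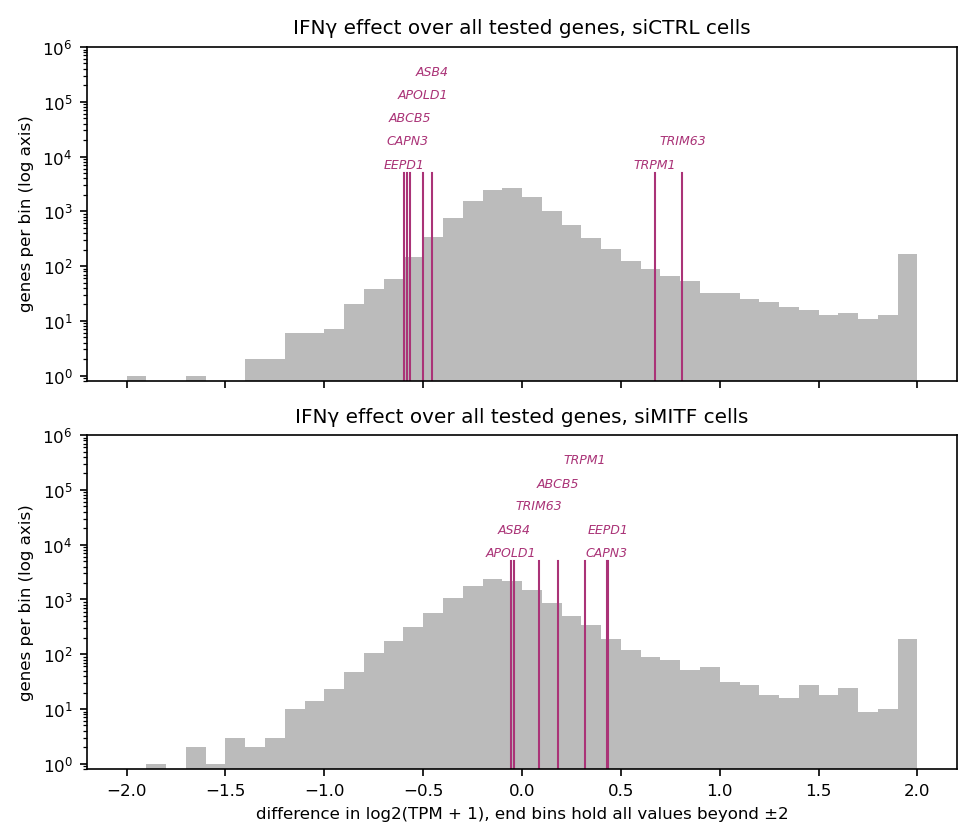
Number of tested genes (logarithmic axis) per bin of the IFNγ difference in log2(TPM + 1), in siCTRL cells (top) and siMITF cells (bottom), with the 7 genes as lines. In siCTRL cells 5 of the lines lie in the lower flank and 2 in the upper one, and in siMITF cells the lines run from -0.05 to 0.44.

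Whether IFNγ acted differently in siCTRL and siMITF cells was tested by the interaction, the IFNγ difference with siMITF less the one with siCTRL. It is also the siMITF difference with IFNγ less the one without, that is, of the values that chose the genes. The 7 are thus not an independent set for this test, and their calls and counts are given as a description. The interaction was 1.01 for CAPN3 (standard error 0.10, limma adjusted p = 3.6e-04) and 1.04 for EEPD1 (standard error 0.16, limma adjusted p = 0.00758). Both passed in all 21 alternatives, which use the same libraries, and the EEPD1 value rests on siMITF means under 2 TPM. These 2 of 7 stood beside 0.705% of the tested genes with a positive interaction that passed, and 0 of 7 beside 0.243% with a negative one, and at an unadjusted p under 0.05 in limma 5 of the 7 were positive and 1 negative, beside 7.67% of the tested genes in either direction. For ABCB5 the interaction was 0.75 and for TRIM63 -0.72, each with a limma adjusted p of 0.0938. When replicate numbers were blocked, since they were taken to pair the libraries, both passed (limma adjusted p = 0.0365), as did APOLD1 (interaction 0.45, limma adjusted p = 0.361 without this block and 0.0334 with it). TRIM63 also passed without siMITF + IFNγ replicate 3 (-0.88, limma adjusted p = 0.0103), and ABCB5 without siCTRL + IFNγ replicate 2 (0.86, limma adjusted p = 0.0446). ASB4 had 0.41 (limma adjusted p = 0.310), and TRPM1 had -0.36 (95% interval -0.74 to 0.03, limma adjusted p = 0.719). With a pseudocount of 0.1 the TRPM1 interaction was -0.03. The mean TPM of TRPM1 with IFNγ was 1.61 times the untreated one in siCTRL and 1.73 times in siMITF cells. The scaling also moved calls of the interaction. ASB4 passed under quantile normalization (limma adjusted p = 0.0333), with libraries centred on their median (0.0315) and without mitochondrial genes (0.0423). TRIM63 and APOLD1 passed with quantile normalization (limma adjusted p of 0.0103 and 0.0141) and with median centring (0.0397 and 0.0118), and ABCB5 passed with median centring (0.0180) and without mitochondrial genes (0.0341). The interaction of MITF was 0.16 (95% interval -0.41 to 0.73).

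In TPM, the distance between siCTRL and siMITF means was smaller with IFNγ for 5 of the 7 genes and larger for TRPM1 and TRIM63. For CAPN3 the means differed 11.3-fold without IFNγ and 5.57-fold with it. For TRPM1 they differed 65.2-fold and 60.7-fold, whereas for TRIM63 they differed 36.6-fold and 56.7-fold.

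A list of 25 other genes known or proposed as MITF targets outside pigment synthesis was examined beside the 7. Of the 24 tested, 16 were lower with siMITF without IFNγ, 3 were higher and 5 did not pass, and their median difference was -1.13, against 0.06 over all tested genes, of which 13.8% were lower and 21.0% higher. IRF4 (-2.63), a transcription factor of the melanocyte and lymphocyte lineages, and BIRC7 (-2.61), an inhibitor of apoptosis, fell most, and RAB27A (-1.96), GPNMB (-1.78) and BCL2A1 (-1.63) also fell. FBXO32, which encodes the muscle ubiquitin ligase adaptor atrogin-1 and is often named with TRIM63, went from 35.6 to 12.7 TPM, a fall of 1.42 on the log2 scale. CTSK, CDKN2A and TBX2 rose by 0.59, 0.53 and 0.50, the first with a call lost in 1 of 21 alternatives.

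With IFNγ in siCTRL cells, 6 of these 24 genes rose, beside 6.8% of all tested genes, 3 fell, beside 6.14%, and 15 did not pass, with a median of 0.03. IRF4 (1.18) and CEACAM1 (1.17), an adhesion receptor, rose most, followed by ACP5 (0.85), SERPINF1 (0.56), SCD (0.52) and FBXO32 (0.39). PPARGC1A (-0.72), HIF1A (-0.42) and CDKN2A (-0.35) fell. The calls of ACP5, FBXO32, HIF1A, PPARGC1A and CDKN2A were each lost in 3 to 8 of 22 alternatives. In siMITF cells 7 rose, beside 7.99% of all tested genes, 3 fell, beside 12.2%, and 14 did not pass. A passing interaction was found for 2 of the 24, RAB27A (0.62) and CEACAM1 (0.82), both positive, beside 0.705% of the tested genes. The 6 list genes that rose with IFNγ in siCTRL cells were all lower with siMITF without IFNγ, as were 16 of the 24 tested. Of the 3 list genes that fell, only PPARGC1A was lower with siMITF (-1.30), whereas HIF1A (-0.09) did not pass and CDKN2A rose (0.53). All 7 chosen genes were lower with siMITF, as their choice favours, whichever way they moved with IFNγ.

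Among the tested relatives of the 7 genes, CAPN2 and APOL2 fell with siMITF. Among the 4 tested TRPM channels TRPM8 rose by 0.68 with siMITF, and none fell. Of 8 tested calpain genes CAPNS1 (0.50) and CAPN15 (0.49) rose and CAPN2 (-0.51) fell, and CAPN15 did not pass in 5 of 22 alternatives. Of 8 tested ABCB transporters ABCB1, the multidrug pump, rose by 2.12 on the log2 scale, from 2.48 to 14.1 TPM, while ABCB5 went the opposite way. ABCB10 rose by 0.42, a call lost in 3 of 22 alternatives. Among 7 tested ASB genes ASB13 (1.18) and ASB9 (0.31) rose, ASB9 with a call lost in 5 of 22. Both MuRF relatives of TRIM63, TRIM54 and TRIM55, stayed at or below 0.230 TPM together in every library and were not tested.

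**Figure D3:**
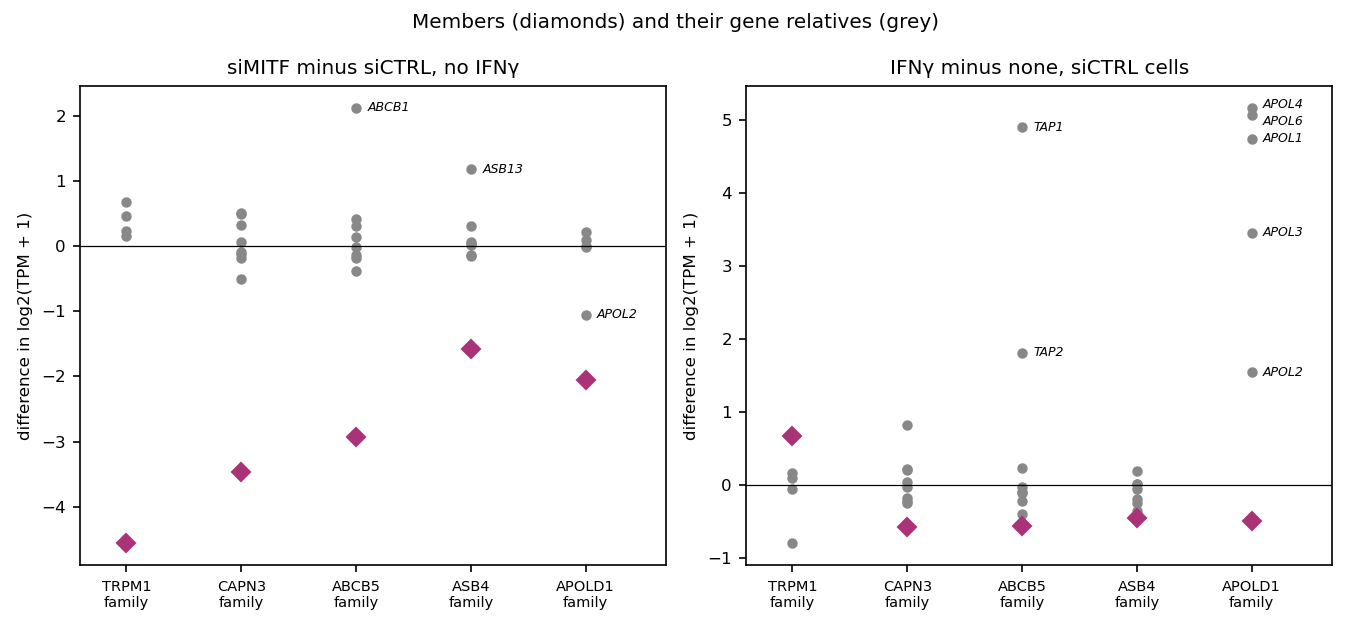
Differences in log2(TPM + 1) for 5 of the genes (diamonds) and the tested members of their families (grey circles), for siMITF against siCTRL without IFNγ (left) and IFNγ against none in siCTRL cells (right). On the left each diamond lies below every relative, with ABCB1 at 2.12 and APOL2 at -1.06, and on the right the APOL genes and TAP1 and TAP2 lie far above 0 while APOLD1 and ABCB5 lie below it.

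The APOL genes, which APOLD1 resembles in one domain, behaved unlike it under IFNγ. All 5 tested members rose in siCTRL cells, by 1.54 (APOL2) to 5.16 (APOL4) on the log2 scale, and APOLD1 fell by 0.50. APOL2 was also the one member lower with siMITF (-1.06), and APOL2 and APOL3 had passing interactions of 0.99 and 1.03. Within the ABCB family TAP1 (4.90) and TAP2 (1.81), the peptide transporter of antigen presentation, rose with IFNγ, whereas ABCB5 (-0.57) and ABCB10 (-0.40) fell, the latter with a call lost in 9 of 22 alternatives. CAPN5 rose by 0.83 with IFNγ, TRPM8 fell by 0.80 and ASB9 by 0.35, the last with a call lost in 7 of 22 alternatives.

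The 2 nearest protein-coding genes on each side of each gene showed no general fall. Of 28 such neighbours 21 were tested. With siMITF 4 rose, EXTL1 (0.98), MATCAP2 (0.97), KLF13 (0.90) and PON2 (0.72), 4 fell, ITGB8 (-0.75), DYNC1I1 (-0.44), GANC (-0.43) and MTMR10 (-0.33), and 13 did not pass. Their median was 0.05, against 0.06 over all tested genes, of which 21.0% passed with a rise and 13.8% with a fall. MTMR10 lies 9.44 kb from TRPM1, and its fall of 0.33 stood beside the difference of -4.56 for TRPM1. With IFNγ in siCTRL cells EXTL1, a glycosyltransferase gene 14.8 kb from TRIM63, rose by 0.99 from 8.40 to 17.7 TPM, in the direction of TRIM63, but it also rose with siMITF. ITGB8 (-1.11), PDK4 (-0.96), ANLN (-0.42) and PON2 (-0.33) fell, and 16 did not pass. Over all tested genes, 6.8% passed with a rise and 6.14% with a fall in this comparison. CAPN3 overlaps the readthrough gene ENSG00000258461, at 0.91 TPM in siCTRL libraries, and the locus of ZNF106, and APOLD1 overlaps DDX47, so reads of shared sequence could have been assigned to either.

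Since several of the 7 genes are known from other tissues, markers of those tissues were read in the same libraries. Of 12 skeletal muscle markers, 11 stayed under 2 TPM in all libraries and 2 of these were listed at 0 throughout. The exception, TNNT1, rose from 12.8 to 30.1 TPM with siMITF while CAPN3 and TRIM63 were lower, and the summed muscle markers ran from 13.8 to 15.0 TPM in siCTRL and from 30.8 to 31.6 TPM in siMITF cells. All 7 retinal ON-bipolar markers stayed under 2 TPM, with sums of at most 0.947 TPM. Of 9 endothelial markers 8 stayed under 2 TPM, with sums from 2.57 to 5.02 TPM over all libraries. The melanocytic markers, all 6 of them, were lower with siMITF, although SOX10 (-0.22) lost its call in 10 of 22 alternatives, and their sums went from between 7745 and 9151 TPM in siCTRL to between 2272 and 2557 TPM in siMITF cells. Of the other markers tested, LUM of fibroblasts rose with siMITF (0.46, a call lost in 7 of 21 alternatives) and fell with IFNγ in siCTRL cells (-0.70), and KRT10 of keratinocytes passed in neither comparison. The other 4 fibroblast, 3 keratinocyte and all 4 leukocyte markers stayed under 2 TPM. The part of TNNT1- or LUM-expressing cells in the values of the 7 genes was not tested. These are bulk libraries, in which fewer cells expressing a gene and less RNA per cell cannot be told apart.

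Over the 12 libraries the 7 genes varied together, as their choice favours: Pearson correlations of log2(TPM + 1) ran from 0.928 for TRIM63 and ASB4 to 0.999 for TRPM1 and TRIM63. These values are given as a description, since the points fall into the 4 conditions. Among other tested genes the pattern of TRPM1 was most like that of LRRK1, MLANA, a melanosome antigen, and MS4A15 (0.998 to 0.997). TRIM63 was nearest to GAGE13, MS4A15 and LRRK1, and GAGE13 belongs to a family of near-identical copies whose reads cannot be cleanly divided. CAPN3 was nearest to SHTN1, CERS2 and GPR137B, all at 0.995, and EEPD1 to ITGAX, QDPR and SHTN1. The nearest genes were HMGA2, MAGEC1 and GPR137B for ABCB5, GARS1, ZC3H11B and TRAF3IP2 for ASB4, and BTBD10, TM4SF19 and RASEF for APOLD1. In siCTRL cells MLANA and MS4A15 had higher means with IFNγ, as TRPM1 did (from 475 to 607 and from 26.7 to 46.0 TPM), and SHTN1 and GPR137B had lower means with IFNγ (from 126 to 109 and from 83.0 to 72.6 TPM), as CAPN3 did. Their choice by correlation over the same 12 libraries favours such likeness.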

How the data were processed

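RNA of 12 libraries of 624Mel cells was sequenced after TruSeq RNA v2 preparation. The deposited values are TPM per gene, which the authors obtained by trimming (Trimmomatic 0.39) and by pseudoalignment with kallisto to Ensembl's GRCh38 transcripts. The Ensembl release is not given in the sources used here. TPM keep no read numbers, so depth is unknown and no counting interval or floor could be given. The authors' DESeq2 test works on counts and was not repeated.

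Here log2(TPM + 1) was fitted with limma 3.58.1 in R 4.3.3, 1 coefficient per condition, moderated by empirical Bayes with a trend on intensity. Tests were two-sided, with Benjamini-Hochberg adjustment over 12773 gene IDs that averaged 2 TPM or more in at least 1 condition. A changed gene had an adjusted p under 0.05, an absolute log2 difference of at least 1 and 2 TPM in one of the conditions compared. p-values measure the spread between libraries, which the study describes as biological replicates. The fit was tested on simulated data. After subtracting condition means, all 18 pairs of libraries sharing a replicate number correlated positively (0.10 to 0.63, median 0.28). The 36 other pairs ran from -0.47 to 0.23 (median -0.20). The subtraction itself favours negative values there when same-number pairs are positive. The number was taken to pair libraries and used as a block in an alternative, not in the main fit.

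Gene positions, introns and neighbours came from GENCODE version 44 (GRCh38), and promoter and microRNA sequences from RefSeq. Tables and figures were made with matplotlib 3.10.9, numpy 2.4.6 and pandas 2.3.3 under Python 3.11.15. The 7 genes and the lists (MITF targets, gene relatives, markers) were chosen with earlier results of these data known. Named genes were the 7, MITF, list members that passed the test, the 2 nearest protein-coding genes on each side, and the 3 genes with the most similar pattern.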

Additional observations from a re-analysis of the deposited data

Results flagged for a closer look

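Interactions of siMITF and IFNγ past an adjusted p of 0.05 in limma, that is, IFNγ effects that differed between siMITF and siCTRL cells by the test of the difference itself, were found for 8 of the genes described. CAPN3 (1.01, limma adjusted p = 3.6e-04) and EEPD1 (1.04, limma adjusted p = 0.00758) fell with IFNγ in siCTRL and rose in siMITF cells, the rise of EEPD1 with a call lost in 5 of 22 alternatives. For both, the interaction is also the difference between the 2 siMITF effects by which the genes were chosen. The siMITF means of EEPD1, 0.989 TPM without and 1.69 TPM with IFNγ, were under the 2 TPM filter. The others were APOL2 (0.99, limma adjusted p = 0.00101), APOL3 (1.03, limma adjusted p = 0.00210), CEACAM1 (0.82, limma adjusted p = 0.00498), RAB27A (0.62, limma adjusted p = 0.0110), PDK4 (0.67, limma adjusted p = 0.0111) and ITGB8 (0.81, limma adjusted p = 0.0420). APOL3 was near 0 TPM without IFNγ, with means of 0.0530 (siCTRL) and 0.0405 TPM (siMITF), and its call was lost in 1 of 21 alternatives. For PDK4 and ITGB8 the means with IFNγ were lower in both backgrounds, from 302.8 to 156.1 and from 9.85 to 4.05 TPM in siCTRL against 265.0 to 217.1 and 5.46 to 4.24 TPM in siMITF libraries.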

How the results depend on the processing

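Settings changed 1 at a time were the pseudocount, the filter on low values, the scaling, the moderation, the libraries in the fit, the replicate block and each library left out. With a mean of at least 5 TPM required, 245 genes (377 otherwise) changed with IFNγ in siMITF cells and 32 (61 otherwise) passed the limits for the interaction. The number of the 7 genes that rose with IFNγ in siMITF cells was 1 under quantile normalization and with only those 2 conditions fitted. For the interaction, positive calls were 4 under quantile normalization, without mitochondrial genes and with the replicate block, and 5 with libraries centred on their median. Negative calls were 1 under quantile normalization, median centring and the block, which changed no other call of the 7 genes. With the E-box search narrowed to TCACGTG and TCATGTG (both strands), which leaves out TCACATG, 1 gene held a match. Under quantile normalization the signs of TRPM1 (-0.10), TRIM63 (-0.22), ABCB5 (-0.26) and ASB4 (0.022) in siMITF cells with IFNγ reversed, as did that of ASB4 without mitochondrial genes (0.0049). None of these values passed the test. The causes were not tested.

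Leaving out 1 library gave 4 to 5 of the 7 genes lower and 2 to 2 higher with IFNγ in siCTRL cells, 1 to 3 higher and 0 to 0 lower in siMITF cells, and 2 to 3 positive and 0 to 1 negative interactions. Changed genes ran from 313 to 334, 376 to 400 and 44 to 68 for these comparisons, and from 774 to 788 and 711 to 758 for siMITF without and with IFNγ. Signs of values that did not pass reversed in some of these fits: MITF with IFNγ in siCTRL cells (-0.10 to 0.22) and its interaction (-0.053 to 0.32), and, in siMITF cells with IFNγ, ASB4 (-0.099 to 0.022), APOLD1 (-0.12 to 0.016) and TRIM63 (-0.067 to 0.21). Smaller pseudocounts (0.1 and 0.5) made the siMITF differences of TRPM1, TRIM63, ABCB5 and EEPD1 larger. Values near 1 TPM, as in siMITF cells, are the least certain, since depth is unknown.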
